A study of Mus musculus with 31 samples.

Results

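Alas2, Ahsp, Slc4a1, Klf1, Gata1, Tfrc and Epor, 7 genes of the red cell lineage, were followed across embryonic mouse eyes with and without the X-linked long noncoding RNA Ftx. The members were the non-control probes whose gene name on the array equals one of these symbols, which gave 9 of 55681 probes: 3 for Tfrc and 1 for each other gene. All 9 were among the 35034 probes tested, a probe being tested where it was well above background in at least 3 of the 20 eyes. The eyes came from embryos at embryonic day 13.5 (E13.5) on a C57BL/6N background, and the pigmented epithelium had been removed from each by dissection. The groups were 3 wild-type (WT) females, 3 WT males, 3 Ftx knockout (KO) males (Ftx-/Y) and 11 Ftx KO females (Ftx-/-), and each KO female eye was hybridised on 2 arrays. The WT females carried the numbers 1, 2 and 4. All KO eyes were of the type that looked normal from outside, and the Ftx deletion also removes the microRNAs hosted in the gene. The labels do not tie eyes to litters, so each p-value measures the spread between these eyes.

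Red cell precursors make haemoglobin by joining globin chains to haem, an iron-bearing ring. Gata1 and Klf1 are transcription factors that switch on globin, haem and membrane genes in these cells, while Epor, the erythropoietin receptor, carries the survival signal and Tfrc, the transferrin receptor, brings in iron. Alas2 is the erythroid enzyme of the first step of haem synthesis, Ahsp is the chaperone of free alpha globin, and Slc4a1 is band 3, the anion exchanger of the red cell membrane. Alas2 and Gata1 lie on the X chromosome, and the study asked how X-linked expression changes in females that lack Ftx. Red cells reach the embryonic eye through the hyaloid vessels. In such bulk samples fewer cells of a type cannot be told apart from less RNA per cell.

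Values are signals after normalisation of the Agilent one-colour arrays to a common distribution, on the linear or the log2 scale as stated, and differences are on the log2 scale, where 1 is a doubling. The probes well above background made up 48.2 to 70.4% of an array. All 13 lens and all 11 neural retina marker probes passed the filter, as did 10 probes for pigment cell genes. A probe for Ftx, named B230206F22Rik on the array, had mean log2 signals of 6.54 in WT females, 6.73 in WT males, 4.03 in KO males and 4.26 in KO females and was well above background on 3 of 3, 3 of 3, 0 of 3 and 9 of 22 arrays. A second, dimmer probe for it was well above background on 2 of 3, 0 of 3, 0 of 3 and 1 of 22 arrays, so it did not separate KO from WT males. Xist was well above background in all female eyes and in no male eye. The arrays lay on 4 slides. Slide 1 held all 6 WT eyes and KO male 1, slide 2 held KO males 2 and 3 with KO females 1 to 3, and slides 3 and 4 held the other KO females. Slide and genotype therefore cannot be told apart between the female groups.

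Alas2, Ahsp and Slc4a1 did not differ detectably between KO and WT females, and all 3 were highest in KO male 2. Across the 20 eyes KO male 2 ranked first for each of these genes. KO male 3 ranked second for Alas2 and Ahsp but not for Slc4a1. The 3 KO males lay above the 3 WT males for each of these genes without overlap, with folds of 2.04, 1.93 and 1.59, but no such difference passed the test over all probes.

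The Alas2 probe lies at chrX:147004993-147005052 on the plus strand (mm9), and its sequence is shown because Alas2 is an X-linked member.
Alas2: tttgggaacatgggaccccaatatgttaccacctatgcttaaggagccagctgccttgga
The log2 signal of Alas2 was 9.48, 9.82 and 9.89 in WT females 1, 2 and 4, 9.23, 9.60 and 9.54 in WT males, and 9.74, 11.12 and 10.60 in KO males. In KO females it ran from 9.11 to 10.38 with a median of 9.78. KO males 2 and 3 stood above every other eye, whereas the KO females spanned the whole WT female range on both sides. The linear means were 856 ± 123 (SD, n = 3) in WT females, 706 ± 92.6 (n = 3) in WT males, 1542 ± 684 (n = 3) in KO males and 870 ± 234 (n = 11) in KO females. Between KO and WT females the Alas2 difference was -0.01 (95% CI -0.52 to 0.49, adjusted p = 0.972 by limma with Benjamini-Hochberg adjustment). Between KO and WT males it was 1.03 (SE 0.31, 95% CI 0.39 to 1.67, adjusted p = 0.188).

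The Ahsp probe has no position in the array files, and its sequence is printed to identify it.
Ahsp: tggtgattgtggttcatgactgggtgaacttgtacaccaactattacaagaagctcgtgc
The log2 signal of Ahsp was 9.60, 10.26 and 9.99 in WT females, 9.54, 9.81 and 10.24 in WT males, and 10.25, 11.32 and 10.86 in KO males. The KO females lay between 9.41 and 10.29 with a median of 9.97. KO male 1 sat just above the highest WT male, and the other 2 KO males were above all remaining eyes. The linear means were 1006 ± 225, 949 ± 235 and 1879 ± 670 in WT females, WT males and KO males and 975 ± 172 in KO females. Ahsp differed by -0.04 between KO and WT females (95% CI -0.45 to 0.37, adjusted p = 0.898) and by 0.95 between KO and WT males (SE 0.25, 95% CI 0.43 to 1.47, adjusted p = 0.171). In the authors' processed table the female differences were 0.22 for Ahsp and 0.25 for Alas2, neither called, and with slide as a fixed block they were -0.73 (adjusted p = 0.480) and -0.79 (adjusted p = 0.481). Without WT male 3 the male difference was 1.14 and passed the test with an adjusted p of 0.0338. The means ran from KO males through WT females and KO females to WT males. KO males were above WT females, the next group (adjusted p = 0.0266 by limma). Those groups differ in sex, genotype and, for KO males 2 and 3, slide, and no alternative was run for them. Among the last 3 groups neighbours in this order did not differ detectably (adjusted p = 0.898 and 0.915).

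Slc4a1, probed at chr11:102210256-102210315 on the minus strand, showed the smallest male difference of the 3 genes. Its log2 signal was 8.06, 8.71 and 8.60 in WT females, 7.96, 8.14 and 8.03 in WT males, and 8.16, 9.31 and 8.67 in KO males, and it ran from 7.95 to 9.09 in KO females with a median of 8.47. WT females 2 and 4 lay above KO male 1, so the higher level was not shared by all KO males against all WT eyes. The difference was 0.02 between the female groups (95% CI -0.46 to 0.49, adjusted p = 0.964) and 0.67 between the male groups (SE 0.28, 95% CI 0.08 to 1.26, adjusted p = 0.318). With 1 male eye left out the male difference ran from 0.37 to 0.95. With slide as a fixed block, which links the female groups only through the KO males, the female difference was -0.86.

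Between KO and WT males, 4 of the 9 member probes did not overlap, those for Alas2, Ahsp and Slc4a1 and 1 probe for Tfrc, all higher in KO males, against 21.5% of all probes in either direction and 13.2% higher. By limma 0 of 9 members passed, where 1 of all probes passed (0.00285%). At an unadjusted p under 0.05 there were 3 members, Alas2, Ahsp and Slc4a1, against 13.6% of all probes, and the unequal-variance test of the study's methods called 0 members. KO male 1, which shared slide 1 with the WT males, had Alas2 at 9.74, and KO males 2 and 3 on slide 2 averaged 10.86. For Ahsp the corresponding values were 10.25 and 11.09, and for Slc4a1 8.16 and 8.99. With slide as a block, which leaves KO male 1 against the WT males, the differences were 0.29 for Alas2, 0.39 for Ahsp and 0.12 for Slc4a1. No such difference passed (adjusted p = 0.936, 0.889 and 0.982).

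Ahsp was lower in KO females than in KO males, by 0.90 on the log2 scale (SE 0.20, 95% CI -1.32 to -0.49, adjusted p = 0.0264). Its log2 mean was 9.91 in KO females, 9.95 in WT females, 9.86 in WT males and 10.81 in KO males. It was the 1 member of 9 called in the comparison of KO females with KO males, where 1.23% of all probes were called and 0.928% were lower. Of the 11 KO females, 10 lay below all KO males. On slide 2, which held both groups, Ahsp averaged 10.05 in 3 KO females and 11.09 in 2 KO males, but the call was lost with slide as a fixed block (-1.04, adjusted p = 0.142) or a random block (-0.88, adjusted p = 0.0513). It was also lost with the replicate number as a block (-0.80, adjusted p = 0.203), in the authors' processed table (-0.72, adjusted p = 0.199) and by the unequal-variance test (-0.95, adjusted p = 0.374). Alas2 differed by -0.77 (adjusted p = 0.143), with 11 of 11 KO females below the KO male mean, and Slc4a1 by -0.24 (adjusted p = 0.621). This comparison uses the same KO male eyes as the one between KO and WT males. Leaving out KO male 2 (-0.65, adjusted p = 0.303) or KO male 3 also ended the Ahsp call (-0.88, adjusted p = 0.153). Alas2 passed without KO male 1 (-1.14, adjusted p = 0.0402), but with each KO male left out in turn its difference ran up to -0.45, with adjusted p up to 0.626. Hbb-b1 and Hbb-b2, the adult beta globins, were also lower in KO females than in KO males, by 0.86 (adjusted p = 0.0214) and 1.05 (adjusted p = 0.0145). In the same comparison Hba-a1 differed by -0.92, Hbb-bh1 by 0.43 and Hbb-y by -0.18 and -0.35, none of them called. Both globin calls were lost in the authors' processed table and without KO male 2, where 0 of the 117 probes of the 7 pathway lists, the globins among them, were called. At least 1 of them was lost with slide as a fixed block, with the replicate block and without KO male 3, where 1 of the 117 was called. Of 13 lens marker probes 4 were lower in KO females than in KO males, Bfsp1 by 0.97, Bfsp2 by 0.71 and Cryab by 0.62 and 0.56. In the same comparison 1 of 16 macrophage probes was higher, for Csf1r, by 0.46. The part of these cells in the Ahsp difference was not tested.

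The difference between KO and WT in females minus that in males was -1.04 for Alas2 (SE 0.39, adjusted p = 0.338), -0.99 for Ahsp (SE 0.32, adjusted p = 0.281) and -0.65 for Slc4a1 (adjusted p = 0.516). Of all probes 0 passed this test (0%), by limma, with 11.2% at an unadjusted p under 0.05. Among the members, Alas2, Ahsp and Gata1 were below that unadjusted p, 3 of 9. The unequal-variance test does not give a value for this difference.

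Gata1 rose in KO females relative to WT females, by 1.63 on the log2 scale (SE 0.43, 95% CI 0.73 to 2.54, adjusted p = 0.00975). It was the 1 member of 9 called in the comparison of the female groups, where 26.7% of all probes were called and 13.8% were higher, so the members' share was not above the background. The probe lies at chrX:7536392-7536451 on the minus strand. Its signal cleared the background on 20 of 22 KO female arrays and on all 3 WT male arrays, but on 1 of 3 in WT females and 1 of 3 in KO males, so the WT female level is mostly a background value and the size of the difference is not resolved.

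The log2 signal of Gata1 was 3.52, 3.72 and 5.37 in WT females, 5.82, 6.26 and 6.48 in WT males, and 5.29, 6.04 and 4.28 in KO males. In KO females it ran from 4.21 to 6.43 with a median of 6.10. WT females 1 and 2 were the lowest of the 20 eyes, and 9 of 11 KO females lay above all WT females. The log2 means were 6.19 ± 0.34 (SD, n = 3) in WT males, 5.20 ± 0.88 (n = 3) in KO males and 5.84 ± 0.66 (n = 11) in KO females, and the 3 WT females had an SD of 1.01. KO females thus did not differ detectably from WT males (adjusted p = 0.665), which had the highest mean. WT females were below WT males without overlap (difference -1.98, SE 0.54, adjusted p = 0.149). Without WT female 4 the adjusted p was 0.0184, but neither remaining WT female was well above background, so that call rests on background values. The KO minus WT difference was -0.98 in males (95% CI -2.12 to 0.15, adjusted p = 0.437), and it ran from -1.40 to -0.52 with 1 male eye left out. The female minus male difference was 2.61 (SE 0.70, adjusted p = 0.230). KO males, like WT females, cleared the background on only 1 of 3 arrays, so the sizes of these 2 differences are not resolved either.

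The Gata1 call was lost in 8 of 15 alternatives. It was lost without WT female 1 (1.29, adjusted p = 0.0999) or WT female 2 (1.39, adjusted p = 0.0735), with scaling to the 75th percentile of signal (0.89, adjusted p = 0.101) and in the authors' processed table (1.13, adjusted p = 0.0942). It was also lost with slide as a random block (1.59, adjusted p = 0.0655) or a fixed block (1.27, adjusted p = 0.644), with the replicate number as a block (1.48, adjusted p = 0.110) and by the unequal-variance test of the study's methods (1.49, adjusted p = 0.114). With another background correction (normexp) it was kept at 0.58. Megakaryocytes and mast cells also express Gata1, and 4 of 13 probes of a list for these cells rose in KO females and 0 fell, where 13.8% of all probes were higher. Among them were Gp9, by 0.77, and Ppbp, by 0.93, and Gp1ba was well above background in only 3 eyes. The summed signal of that list ran from 2473 to 3254 in WT females, 3147 to 4049 in WT males, 1827 to 3111 in KO males and 2542 to 5662 in KO females. The mast cell genes Fcer1a and Tpsab1 were well above background in no eye, Mcpt4 in 2 eyes and Cpa3 in 5 eyes, where it was not called (0.71, adjusted p = 0.578). Markers of periocular mesenchyme also moved with the groups, with 9 of 11 probes higher in KO females and summed signals of 3734 to 5428 in WT females, 5379 to 14003 in WT males, 4876 to 10078 in KO males and 5957 to 51935 in KO females. Of the lens marker probes 11 of 13 fell, where 12.9% of all probes were lower, with summed signals of 989188 to 1288430 in KO females, 1303670 to 1420190 in WT females, 1298250 to 1338440 in WT males and 1253420 to 1360910 in KO males. For pigment cell genes 2 of 10 probes rose, with summed signals of 4378 to 43114 in KO females, 6758 to 9797 in WT females, 10775 to 15942 in WT males and 6678 to 9683 in KO males. The part of these cells in the Gata1 difference was not tested.

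Klf1, probed at chr8:87428881-87428940 on the plus strand, was close to the detection limit, being well above background in 12 of 20 eyes and on 19 of 22 KO female arrays but on 4 of the 9 others. Its log2 signal was 4.74, 5.28 and 4.94 in WT females, 5.05, 4.97 and 4.11 in WT males, and 4.81 to 5.02 in the 3 KO males, and it ran from 4.31 to 6.55 in KO females with a median of 5.31. The groups overlapped throughout. The difference was 0.35 between the female groups (95% CI -0.29 to 0.98, adjusted p = 0.410) and 0.20 between the male groups (adjusted p = 0.853), and these turned to -0.28 and -0.22 when arrays were scaled to the 75th percentile. In KO females the SD between the 2 arrays of an eye was 0.53, as large as the 0.53 between eyes, so the levels of single eyes were not resolved.

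Epor, probed at chr9:21763422-21763481 on the minus strand, passed the adjusted test by limma between no pair of groups. Its log2 signal was 6.40, 6.43 and 6.38 in WT females, 6.74, 6.49 and 6.61 in WT males, and 6.28, 6.59 and 6.47 in KO males, and in KO females it ran from 6.30 to 7.32 with a median of 6.53. WT females lay below WT males without overlap, and 9 of 11 KO females lay above all WT females. The difference was 0.23 between the female groups (95% CI -0.12 to 0.59, adjusted p = 0.320), or -0.06 with scaling to the 75th percentile, -0.16 between the male groups and -0.21 between WT females and WT males (adjusted p = 0.731). Between WT females and WT males 0 of 9 members passed by limma, where 0.385% of all probes were called. Gata1 alone had an unadjusted p under 0.05 there, against 12.5% of all probes, and 2 of 9 members, Gata1 and Epor, did not overlap, both lower in females, against 16.1% of all probes and 6.61% lower. With KO female 1 the highest eye at 7.32, Epor in KO females had an SD of 0.30 between eyes and 0.16 between arrays.

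Tfrc is read by 3 probes along the gene, at chr16:32632255-32632314, chr16:32624877-32625093 and chr16:32620470-32620529 on the plus strand. Each probe is 60 bases long, and the middle one lies over 217 bases of the genome. The gene is on the plus strand, so the probe at the highest position is the downstream one. The sequences of the middle and the upstream probe are shown because the probes of this gene disagreed.
Tfrc, middle probe: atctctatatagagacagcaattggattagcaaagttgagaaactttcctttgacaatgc
Tfrc, upstream probe: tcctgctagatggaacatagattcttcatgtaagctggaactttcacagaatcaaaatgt
The downstream probe, which has the most spots per array, gave log2 signals of 9.17, 9.21 and 9.45 in WT females, 9.06, 9.03 and 9.24 in WT males, 9.28, 9.29 and 9.43 in KO males, and 9.01 to 9.68 in KO females with a median of 9.43. The upstream probe gave 9.28, 9.53 and 9.60 in WT females, 9.11, 9.16 and 9.50 in WT males, 9.35, 9.27 and 9.54 in KO males, and 8.51 to 9.56 in KO females with a median of 9.08. All groups overlapped on both probes except KO and WT males on the downstream one. The difference between the female groups was 0.10 on the downstream probe (95% CI -0.17 to 0.36, adjusted p = 0.596) and -0.38 on the upstream one (95% CI -0.74 to -0.02, adjusted p = 0.107), with 10 of 11 KO females below the WT mean. The middle probe was dim and differed by -0.03 (adjusted p = 0.950). Its highest eye, KO female 6 at 7.29, rested on 1 of 2 arrays, which differed by 2.78. Over the 20 eyes, deviations from the group means on the 3 probes correlated at 0.05, -0.25 and 0.25, so the probes did not rank the eyes alike.

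**Figure D1:**
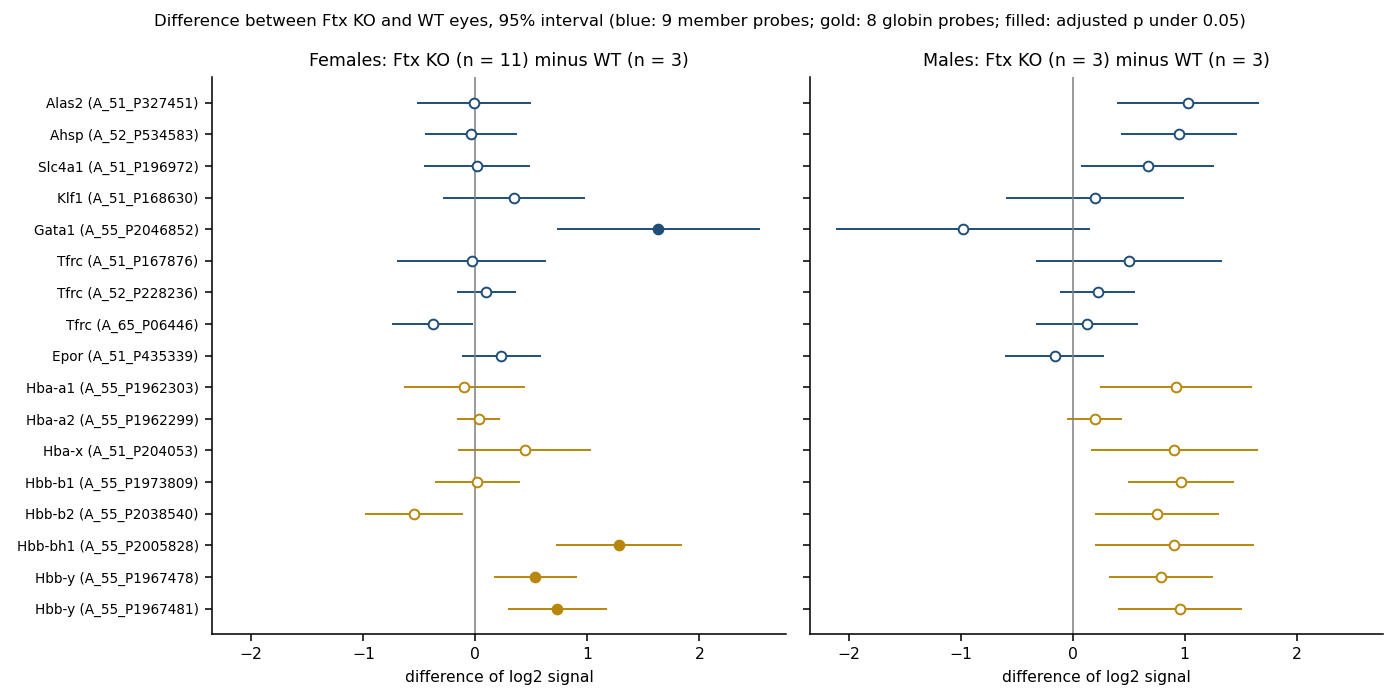
Log2 difference of each member probe and of 8 globin probes, with its 95% confidence interval, for KO minus WT females (left) and KO minus WT males (right), filled where the adjusted p was under 0.05. The intervals of Alas2, Ahsp and Slc4a1 span 0 between the female groups and lie above 0 between the male groups, and the interval of Gata1 lies above 0 in females.

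**Figure D2:**
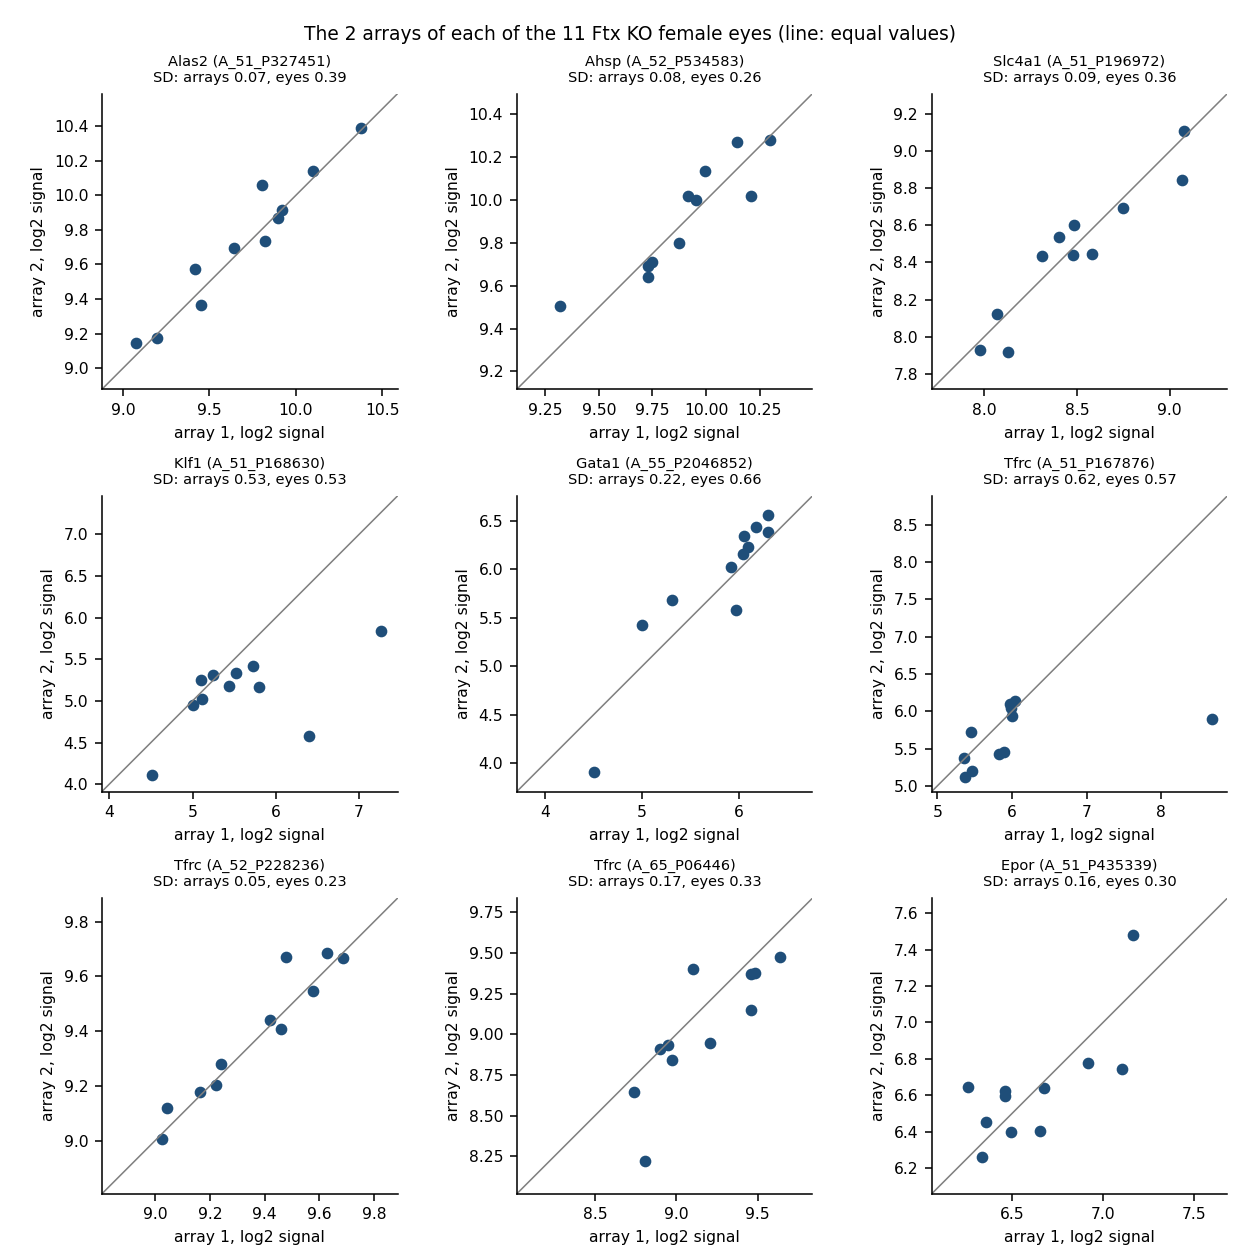
Log2 signal of the 2 arrays of each KO female eye for the member probes, one array against the other. Points of Alas2, Ahsp and Slc4a1 lie near the line of equal values, while 2 eyes of Klf1 and 1 eye of the middle Tfrc probe lie far from it.

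For most members the 2 arrays of a KO female eye differed less than the eyes did. The SD between arrays was 0.07 for Alas2 against 0.39 between eyes, 0.08 against 0.26 for Ahsp, 0.09 against 0.36 for Slc4a1, 0.05 against 0.23 for the downstream Tfrc probe, 0.16 against 0.30 for Epor and 0.22 against 0.66 for the dim Gata1 probe. Between the highest and the lowest KO female, Alas2 differed 2.41-fold, Slc4a1 2.21-fold, Epor 2.04-fold and Ahsp 1.84-fold. For Gata1 no such fold is given, since its lowest KO female was not well above background. The mean of Alas2 in KO females was 10.06 on slide 2, 9.60 on slide 3 and 9.58 on slide 4, and that of Ahsp was 10.05, 9.89 and 9.82, while Gata1 was 5.35, 6.13 and 5.91.

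Within groups, Alas2, Ahsp and Slc4a1 varied together. As a description over the 20 eyes, which share slides, the deviations of Alas2 from its group means correlated with those of Ahsp at 0.79 and of Slc4a1 at 0.79, and Ahsp with Slc4a1 at 0.66. The probes most like Alas2 were Pdzk1ip1 (r = 0.94), Hba-x (0.89), Hbb-bh1 (0.89), Hba-a1 (0.89) and Hbb-y (0.86), the last 4 being embryonic or adult globins. Those most like Ahsp were Hbb-b1 (0.85), Beta-s (0.81), Rpl36a (0.81), Pdzk1ip1 (0.80) and Alas2 (0.79), and those most like Slc4a1 were Pdzk1ip1 (0.87), Tal1 (0.86), Hba-x (0.81), Alas2 (0.79) and Hbb-bh1 (0.78). The other members had other companions. Gata1 was most like Ocstamp (0.92), Slco2b1 (0.84) and Gfi1b (0.80), Epor was most like Lmna (0.91), Ptgs1 (0.90) and Ppfibp2 (0.89), and the downstream Tfrc probe was most like a transcript named by its position (0.86), Smu1 (0.85) and AK203298 (0.84). Klf1 was most like Xkr5 (0.84), and its nearest probes are not read further because its arrays disagreed. All these companions are the highest values among the 35034 probes tested, over 20 eyes, and no chance level was computed. Klf1 reached 0.84 in spite of its array error, so values of this size do not by themselves show shared expression. Gata1 was well above background in only 15 of the 20 eyes.

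**Figure D3:**
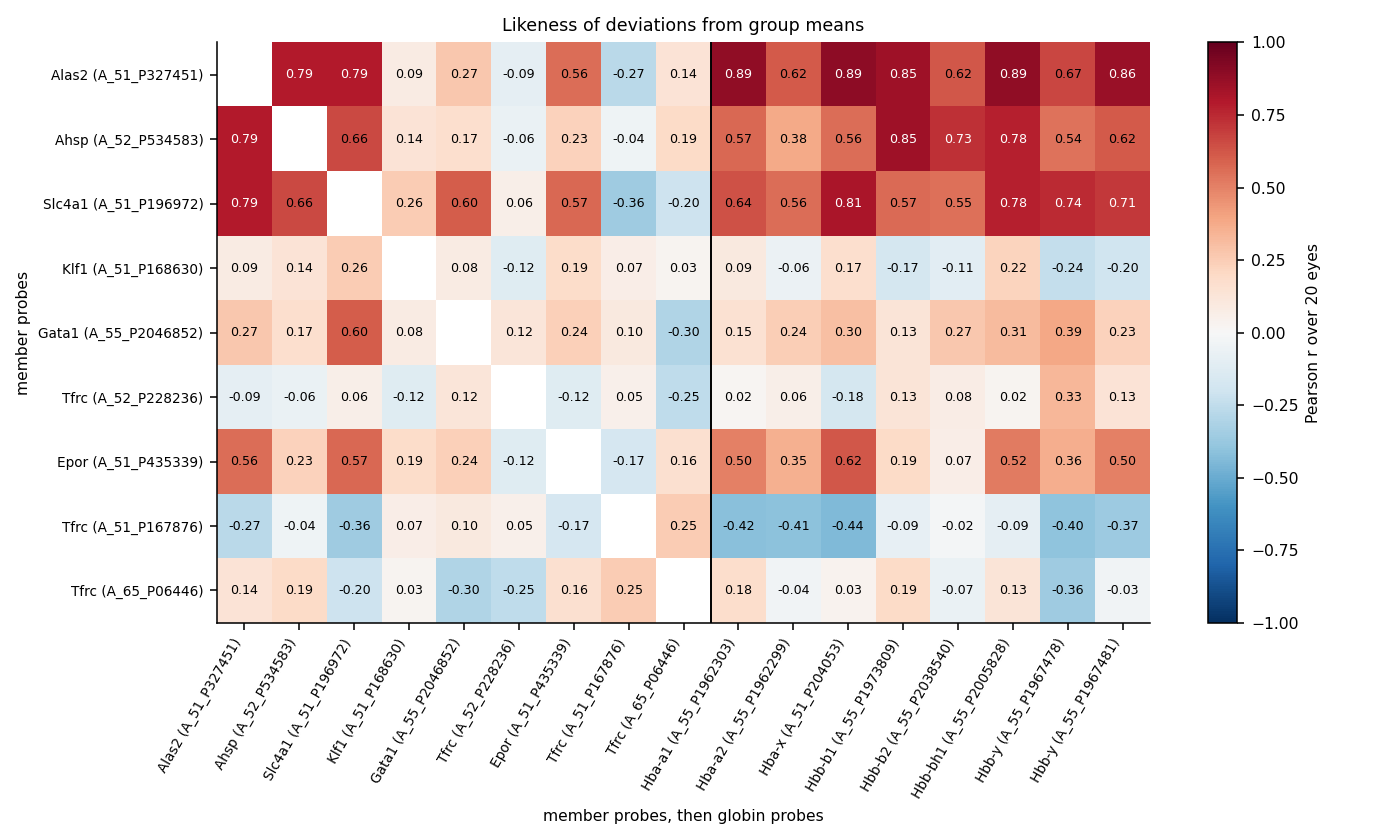
Correlation over 20 eyes of deviations from the group means, for the 9 member probes (rows) against the member probes and 8 globin probes (columns). Alas2, Ahsp and Slc4a1 reach 0.66 to 0.79 with one another, and the 3 Tfrc probes lie between -0.25 and 0.25.

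The levels of Alas2 and Ahsp followed the beta globins Hbb-b1 and Hbb-bh1 eye by eye. With the eyes taken as deviations from their group means, Alas2 correlated with Hbb-b1 at r = 0.85 (Spearman's rho 0.72; permutation p = 0.00019 and 0.00276, adjusted p = 0.00171 over 18 relations) and Ahsp at r = 0.85 (rho 0.83; permutation p = 0.0003 and 0.00028, adjusted p = 0.0018). With Hbb-bh1, an embryonic beta globin, r was 0.89 for Alas2 (rho 0.80; permutation p = 7e-05 and 0.0005, adjusted p = 0.00126), 0.78 for Ahsp (rho 0.78; permutation p = 0.00061 and 0.00068, adjusted p = 0.00275) and 0.78 for Slc4a1 (rho 0.74; permutation p = 0.00134 and 0.00141, adjusted p = 0.00482). Slc4a1 and Hbb-b1 gave r = 0.57 (rho 0.46; permutation p = 0.0372 and 0.0838, adjusted p = 0.0956). Without the 2 eyes farthest from the median globin level, r was 0.77 and 0.77 for Alas2 and Ahsp with Hbb-b1, 0.82 and 0.75 with Hbb-bh1, and 0.69 for Slc4a1 with Hbb-bh1, but fell to 0.37 for Slc4a1 with Hbb-b1. Within slides r was 0.74, 0.82 and 0.56 with Hbb-b1 and 0.87, 0.68 and 0.76 with Hbb-bh1, in the order Alas2, Ahsp, Slc4a1. The permutations exchanged eyes of a group across slides, so the permutation p-values do not allow for slide and may be too small. No p-value was computed within slides. Gata1, Epor and the downstream Tfrc probe reached 0.13, 0.19 and 0.13 with Hbb-b1, and Klf1 -0.17, while within slides Gata1 reached 0.44 and Epor -0.08. With Hbb-bh1, Epor reached 0.52 (rho 0.46; permutation p = 0.0343 and 0.0672, adjusted p = 0.0956), Gata1 0.31, or 0.52 within slides, Klf1 0.22 and the downstream Tfrc probe 0.02. The alpha globins were not tested, and as a description Ahsp correlated with Hba-a2, Hba-x and Hba-a1 at 0.38, 0.56 and 0.57 and with the Hbb-y probes at 0.54 and 0.62. Taking the difference from Hbb-b1 reduced the SD over eyes from 0.41 to 0.22 for Alas2 and from 0.33 to 0.18 for Ahsp, and from 0.37 to 0.32 for Slc4a1, but raised that of the downstream Tfrc probe from 0.20 to 0.34.

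**Figure D4:**
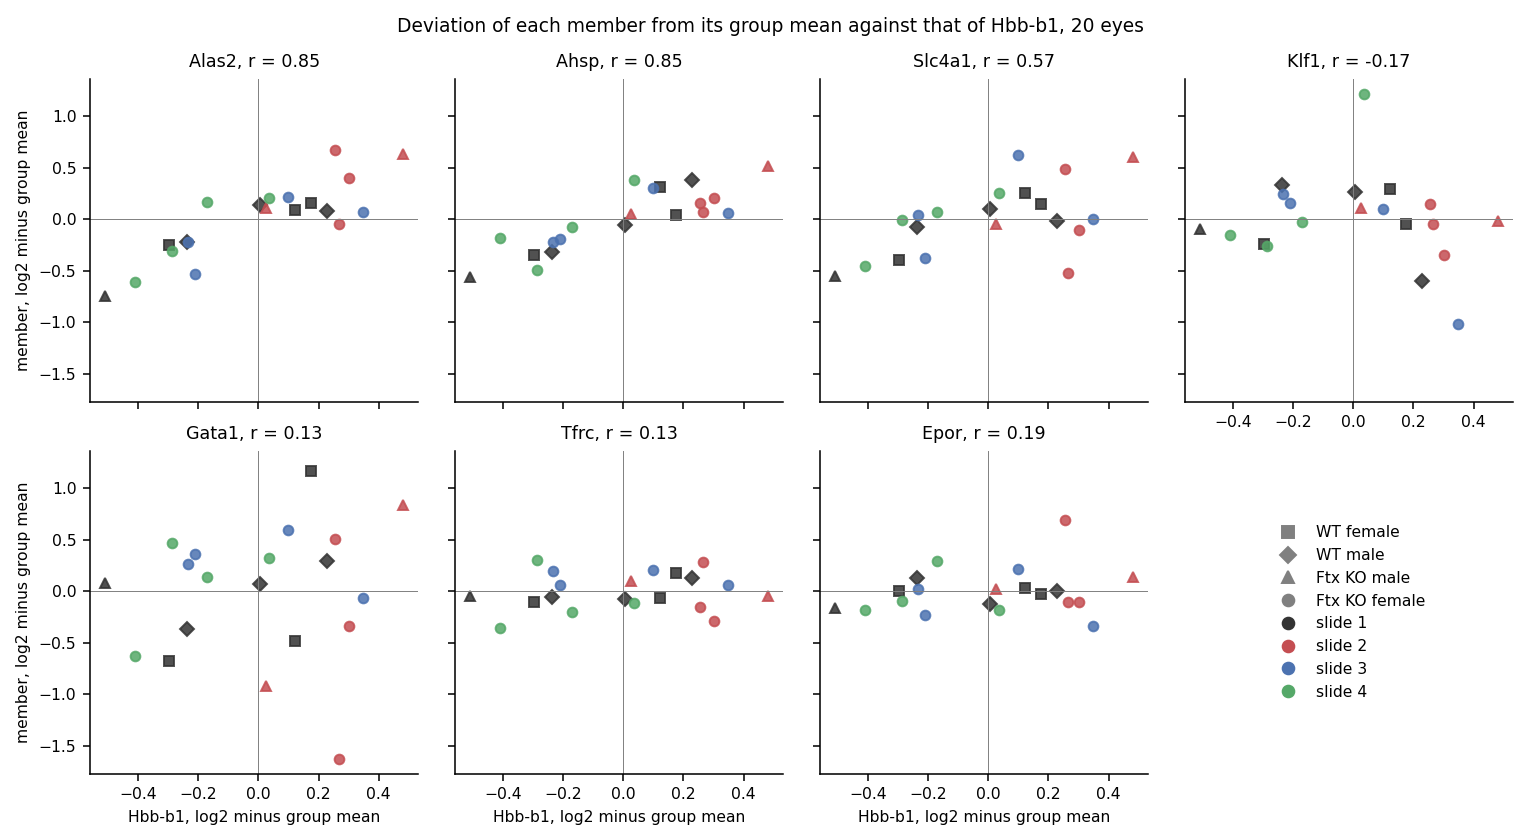
Log2 signal of the 7 members, each by 1 probe, against that of Hbb-b1, both as deviations from the group means, with 1 point per eye shaped by group and coloured by slide. The points of Alas2 and Ahsp follow Hbb-b1 with r = 0.85 each, and those of Gata1, Klf1, Tfrc and Epor reach r between -0.17 and 0.19, with Gata1 at 0.44 within slides.

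Among the globins, 3 of 8 probes rose between the female groups, where 13.8% of all probes were higher, all of embryonic beta globins. Hbb-bh1 rose by 1.28 in KO females (adjusted p = 0.00229) and both probes of the embryonic Hbb-y by 0.53 and 0.73 (adjusted p = 0.0315 and 0.0161), while the embryonic Hba-x differed by 0.44 (adjusted p = 0.258), Hbb-b2 by -0.55 (adjusted p = 0.0606), Hba-a1 by -0.10, Hba-a2 by 0.03 and Hbb-b1 by 0.02, none of them called. In males, differences were 0.97 for Hbb-b1, 0.91 for Hbb-bh1 and 0.92 for Hba-a1, with none called. Hbb-bh1 divided by slide: its log2 signal was 10.29 to 10.78 in the 7 eyes of slide 1, KO male 1 among them at 10.62, and 11.06 to 12.58 in the 13 eyes of slides 2 to 4, with KO males 2 and 3 at 12.13 and 11.50. The 3 calls in females were lost with slide as a fixed block, where 0 of the 117 pathway probes were called, so slide and genotype cannot be told apart here.

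The 7 lists of the pathway, the globins being one of them, were counted around the members, with 117 probes in all, of which 17 rose and 22 fell in KO against WT females. That is 33.3% against the 26.7% of all probes. Over all probes 13.8% were higher and 12.9% lower, the shares to set beside the counts of each list. The 39 calls numbered 20 without WT female 1, 20 without WT female 2, 28 without WT female 4, 15 with slide as a random block and 0 with it as a fixed block. In haem synthesis 5 of 16 probes rose and 3 fell, with a median difference of 0.05. Uros rose by 0.40 on a probe measured in all 20 eyes, its other called probe being well above background in only 6 eyes, Glrx5, an iron-sulphur cluster protein, by 0.27 and Tmem14c, a mitochondrial porphyrin carrier, by 0.24, and Alad fell by 0.32 and Ppox, the next-to-last enzyme, by 0.42. Among transcription factors 2 of 19 probes rose and 5 fell (median -0.04). Of these, 1 probe of Cbfa2t3, well above background in 15 eyes, rose by 3.39 while its other 2 differed by -0.08 and -0.05, Myb rose by 0.35, and Lmo2 and E2f2 fell by 0.41 and 0.34. Tal1 and Gfi1b, partners of Gata1 in red cells, differed by 0.50 (adjusted p = 0.120) and 0.60 (adjusted p = 0.278, well above background in 7 eyes).

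Red cell membrane probes numbered 2 higher and 4 lower of 19 (median 0.05). Probes of Epb4.9, the dematin gene, moved opposite ways, by 1.13 and -1.01, Rhd rose by 0.76 (adjusted p = 0.0499), and Spnb1, a spectrin, fell by 0.74. For Epb4.1, its junction partner, 1 probe fell by 0.71 and the other 2 differed by 0.11 and -0.65. Of 16 late erythroid probes 3 rose and 3 fell, with Hemgn up by 1.05 and Car2 by 0.51. Of 4 Bnip3l probes 1 rose by 0.39 and the others differed by -0.17 to -0.01, and of 2 probes of Cat, catalase, 1 fell by 0.87 and the other differed by -0.23. Iron handling had 2 of 23 higher and 4 lower, with Slc11a2, an iron importer, up by 0.33 on 1 probe and differing by 0.29 on another. For Slc25a37, the mitochondrial iron carrier, 1 probe fell by 0.52 and the other differed by 0.03. In erythropoietin signalling 0 of 16 probes rose and 3 fell, Stat5a by 0.43, Pim1 by 0.43 and 1 of 2 Stat5b probes by 0.45, the other differing by -0.04. In males 0 of 117 probes passed, where 0.00285% of all probes did. Between KO females and KO males 3 did (2.56%), all lower in KO females, where 1.23% of all probes were called and 0.928% were lower.

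The windows of 250 bases before the start, from RefSeq for GRCm38.p6, were searched for the GATA words, spelled AGATAA or, with another last letter, AGATAG, and with T in front TGATAA or the related word TGATAG, and for CCNCNCCC, the CACC-type word bound by Klf1, on both strands with overlaps allowed. Windows were available for 5 of 7 members, in 6 windows, since Tfrc had more than 1. The 3 that hold a GATA word are shown because Gata1 is among the members, with matches in capitals, at chrX:150547167-150547416 on the plus strand for Alas2, chr8:84901732-84901981 on the plus strand for Klf1 and chr9:21963577-21963826 on the minus strand for Epor.
Alas2: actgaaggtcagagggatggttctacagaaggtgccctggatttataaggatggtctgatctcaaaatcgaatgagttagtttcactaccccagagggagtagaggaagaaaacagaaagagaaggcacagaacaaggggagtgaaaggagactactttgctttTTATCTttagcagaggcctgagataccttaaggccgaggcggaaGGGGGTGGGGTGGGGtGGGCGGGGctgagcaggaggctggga
Klf1: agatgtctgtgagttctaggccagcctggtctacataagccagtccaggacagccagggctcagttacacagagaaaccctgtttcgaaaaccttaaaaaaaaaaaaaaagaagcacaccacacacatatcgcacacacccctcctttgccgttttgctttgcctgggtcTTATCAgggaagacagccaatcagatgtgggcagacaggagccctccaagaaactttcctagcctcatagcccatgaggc
Epor: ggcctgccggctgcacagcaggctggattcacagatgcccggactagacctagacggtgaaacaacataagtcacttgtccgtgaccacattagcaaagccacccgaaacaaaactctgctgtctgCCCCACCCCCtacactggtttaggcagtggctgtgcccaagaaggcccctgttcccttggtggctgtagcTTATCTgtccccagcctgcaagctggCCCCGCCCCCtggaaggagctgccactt
The Alas2 window held 1 GATA word, ending 81 bases before the start, and 4 CCNCNCCC words. Klf1 held 1 and 0, and Epor 1 and 4. The Gata1 window held 0 GATA words and 3 CCNCNCCC words, and the Tfrc windows 0 GATA words with 3 and 2. Of 32851 windows of all genes, 26.5% held a GATA word, 45.9% a CCNCNCCC word and 8.2% both. A match describes letters in the window and not a binding site.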

How the data were processed

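Total RNA of eyes without their pigmented epithelium was hybridised to one-colour (Cy3) Agilent arrays of 62976 spots, 3671 of them controls, with probe positions in mm9. The authors deposited scanner intensity values per spot, made with Agilent Feature Extraction 11.0.1.1 (per the file headers), and a table of their processed signals. That table was taken to log2 here and used as an alternative. The processed intensity was qspline-normalised over 31 arrays (100 samples, 5 iterations), since the study's methods name that step, 5751 outlier spots were left out, and log2 values were averaged over spots of a probe and then over an eye's 2 arrays. All 35034 tested probes went into limma 3.58.1 in R 4.3.3 over 20 eyes with a variance trend; calls were adjusted p under 0.05 by Benjamini-Hochberg. Permutation tests used 100000 resamples within groups, with eyes exchanged across slides. Alternatives covered scaling, filters, slide, array, replicate block, left-out WT and KO male eyes and the methods' t-test on the same values. The scripts were tested on simulated data. Members and lists were chosen with earlier results of these data known. Named probes were the members, and up to 6 called probes per list. WT female number 3 is not analysed here. No counting depth applies to arrays, whose number limits precision.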

Additional observations from a re-analysis of the deposited data

How the results depend on the processing

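Over the alternatives and the left-out eyes, 727 of the members' values kept their direction and side of the threshold, 40 changed sign, 15 lost and 3 gained their call. None of the 40 was called in either setting. The Gata1 difference between KO and WT females was positive under each alternative run, from 0.58 to 2.22. Without WT female 1 the calls in KO vs WT females numbered 4126 of all probes, without WT male 3 those in males numbered 819, and without WT female 4 those between WT females and males numbered 1046. Deviations of same-numbered KO and WT eyes correlated at -0.02, -0.07 and 0.03 in males and -0.34, 0.16 and -0.30 in females. With 3 WT eyes per sex and the female groups on different slides, this cannot decide whether same-numbered eyes were pairs. The median of all probes in KO against WT females moved from -0.01 to -0.15 at the 75th percentile, where 37.2% of calls were higher against 51.7% and 80.7% in the authors' table. In that table it was -0.18 in males, 0.32 in the female minus male difference and 0.22 in KO females against KO males. For WT females against WT males 23.7% of calls were higher, 60.1% with normexp and 11.5% in that table. Calls otherwise numbered 1 member, 39 pathway probes and 9367 of all probes in KO vs WT females, 0, 0 and 1 in males, 0, 0 and 0 in the female minus male difference, 0, 0 and 135 in WT females vs WT males and 1, 3 and 430 in KO females vs KO males. The cause of the changes below was not tested.

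Scaling to the 75th percentile gave 0.0046 for Alas2, -0.022 for Slc4a1, -0.28 for Klf1, 0.89 for Gata1 (adjusted p = 0.101) and -0.063 for Epor in KO vs WT females, -0.22 for Klf1 in KO vs WT males, and -0.061 for Klf1 in the female minus male difference. It called 0 members in KO vs WT females. Quantile normalisation called 10 of all probes in KO vs WT males. Normexp with quantile normalisation gave -0.012 for Slc4a1 in KO vs WT females. It called 11 of all probes in KO vs WT males, and 1 pathway probe and 321 of all probes in WT females vs WT males. The authors' processed table gave 0.25 for Alas2, 0.22 for Ahsp, -0.042 for Klf1 and 1.13 for Gata1 (adjusted p = 0.0942) in KO vs WT females, -0.34 for Klf1 and -0.019 for Tfrc (middle probe) in KO vs WT males, 0.24 for Tfrc (downstream probe) in the female minus male difference, -0.085 for Ahsp and -0.016 for Tfrc (downstream probe) in WT females vs WT males, and -0.72 for Ahsp (adjusted p = 0.199) and 0.065 for Tfrc (middle probe) in KO females vs KO males. It called 0 members, 14 pathway probes and 3654 of all probes in KO vs WT females, 4 of all probes in KO vs WT males, 87 of all probes in WT females vs WT males, and 0 members, 0 pathway probes and 134 of all probes in KO females vs KO males. A minimum signal of 500 in WT females called 0 members and 4925 of all probes in KO vs WT females, 3 of all probes in KO vs WT males, 10 of all probes in WT females vs WT males, and 275 of all probes in KO females vs KO males. Leaving out the filter called 55 of all probes in KO vs WT males, 5 of all probes in the female minus male difference, and 236 of all probes in WT females vs WT males. The first array of each KO female alone gave 0.13 for Tfrc (middle probe) in KO vs WT females. It called 3 of all probes in KO vs WT males. The second array alone gave 0.0027 for Alas2 in KO vs WT females, and -0.079 for Klf1 in the female minus male difference. It called 2 of all probes in KO vs WT males. A fit of only the 2 groups compared called 0 of all probes in KO vs WT males, and 79 of all probes in WT females vs WT males. Slide as a fixed block gave -0.86 for Slc4a1, 1.27 for Gata1 (adjusted p = 0.644), 0.027 for Tfrc (middle probe) and -0.033 for Tfrc (downstream probe) in KO vs WT females, and -1.04 for Ahsp (adjusted p = 0.142) and -0.041 for Tfrc (downstream probe) in KO females vs KO males. It called 0 members, 0 pathway probes and 53 of all probes in KO vs WT females, 87 of all probes in KO vs WT males, and 0 members, 1 pathway probe and 104 of all probes in KO females vs KO males. Slide as a random block gave -0.16 for Slc4a1 and 1.59 for Gata1 (adjusted p = 0.0655) in KO vs WT females, and -0.88 for Ahsp (adjusted p = 0.0513) in KO females vs KO males. It called 0 members, 15 pathway probes and 4395 of all probes in KO vs WT females, 218 of all probes in WT females vs WT males, and 0 members and 239 of all probes in KO females vs KO males. The replicate number as a block is a pairing that the labels do not state. This block gave 0.13 for Alas2 and 1.48 for Gata1 (adjusted p = 0.11) in KO vs WT females, and -0.80 for Ahsp (adjusted p = 0.203) and -0.017 for Tfrc (downstream probe) in KO females vs KO males. It called 0 members, 15 pathway probes and 4024 of all probes in KO vs WT females, 0 of all probes in KO vs WT males, 1 of all probes in the female minus male difference, 82 of all probes in WT females vs WT males, and 0 members, 1 pathway probe and 145 of all probes in KO females vs KO males. The methods' unequal-variance test after adjustment gave 0.023 for Alas2, 1.49 for Gata1 (adjusted p = 0.114) and 0.035 for Tfrc (middle probe) in KO vs WT females, and -0.95 for Ahsp (adjusted p = 0.374) in KO females vs KO males. It called 0 members, 22 pathway probes and 4954 of all probes in KO vs WT females, 0 of all probes in KO vs WT males, 0 of all probes in WT females vs WT males, and 0 members, 8 pathway probes and 2205 of all probes in KO females vs KO males. The same test at the study's threshold called 5 pathway probes and 2099 of all probes in KO vs WT males, 1 member, 3 pathway probes and 936 of all probes in WT females vs WT males, and 16 pathway probes and 5085 of all probes in KO females vs KO males. The study's fold and p threshold on the limma fit called 2 members in KO vs WT females, 3 members, 22 pathway probes and 3922 of all probes in KO vs WT males, 3 members, 21 pathway probes and 3436 of all probes in the female minus male difference, 1 member, 8 pathway probes and 3561 of all probes in WT females vs WT males, and 2 members, 13 pathway probes and 3856 of all probes in KO females vs KO males.

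When each WT female, WT male and KO male was left out in turn, but none of the 11 KO females, in KO vs WT females differences ran from -0.18 to 0.14 for Slc4a1, 1.29 to 2.22 for Gata1, -0.32 to 0.17 for Tfrc (middle probe), -0.14 to 0.066 for Alas2 and -0.22 to 0.11 for Ahsp. In WT females vs WT males differences ran from -0.073 to 0.28 for Ahsp and -0.025 to 0.44 for Klf1. In the female minus male difference differences ran from -0.022 to 0.45 for Klf1, -0.93 to -0.35 for Slc4a1 and 2.15 to 3.20 for Gata1. In KO vs WT males differences ran from -0.10 to 0.37 for Klf1, 0.71 to 1.40 for Alas2, 0.70 to 1.23 for Ahsp, 0.37 to 0.95 for Slc4a1 and -1.40 to -0.52 for Gata1. In KO females vs KO males differences ran from -1.18 to -0.65 for Ahsp, -1.14 to -0.45 for Alas2 and -0.52 to 0.059 for Slc4a1. In KO vs WT females calls ran from 0 to 1 for members, 20 to 28 for pathway probes and 4126 to 10006 for all probes. In the female minus male difference calls ran from 0 to 15 for all probes and 0 to 1 for pathway probes. In WT females vs WT males calls ran from 0 to 1 for members, 104 to 1046 for all probes and 0 to 1 for pathway probes. In KO vs WT males calls ran from 0 to 819 for all probes, 0 to 1 for members and 0 to 7 for pathway probes. In KO females vs KO males calls ran from 0 to 2 for members, 145 to 179 for all probes and 0 to 2 for pathway probes.

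The methods' test and the fit of only 2 groups give no female minus male difference, and Gata1, Klf1, Epor, Slc4a1 and the middle Tfrc probe were below the minimum signal of 500 and were not tested there. Dim probes limit the values of Gata1, Klf1 and the middle Tfrc probe.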
